A study of Mus musculus with 1 sample.

Results

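The C/EBP transcription factors are basic leucine zipper proteins that bind DNA as dimers. The 5 genes Cebpa, Cebpb, Cebpd, Cebpe and Cebpg were chosen by name, and all 5 were found among the 25661 genes of a mouse bone marrow library sequenced cell by cell. The library was captured on BD Rhapsody microwells and amplified by TAS-Seq. Its cells had been sorted and stained with PE-streptavidin carrying 1 of 5 DNA barcodes (hashtags A961 to A965) to mark where each came from. The labels list, for 1 mouse injected with LPS (lipopolysaccharide, a bacterial wall component that provokes inflammation) and 1 naive mouse, bone marrow progenitors sorted as cKit+ and Lin- and a second population named GMP-MoPs. Cells named cMoPs came from 1 naive mouse. The labels spell out neither GMP-MoP nor cMoP, give no strain, sex, age, dose or time, and do not say which hashtag stands for which population or mouse, so no hashtag is given a treatment here. Cells loaded were 15000 for each of A965 and A963 and 100 for each of A961, A962 and A964.

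C/EBPα is needed for committed myeloid progenitors to form granulocyte-monocyte progenitors and to enter the granulocyte lineage, and C/EBPε acts later, on the genes of the secondary granules. C/EBPβ is known for granulocyte production under inflammatory demand and for monocytes and macrophages, and C/EBPδ for acute-phase responses and maturing neutrophils. C/EBPγ lacks the activation domains of the others, forms dimers with them and with ATF4, and is made in most tissues. All use the same kind of DNA site, and the mix of members a cell makes differs between lineages and stages. The long and short protein forms of C/EBPα and C/EBPβ are translated from 1 mRNA and cannot be seen in these counts.

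In GENCODE M21 (GRCm38), Cebpa lies on the plus strand at chr7:35119293-35121928 and Cebpg on the minus strand at chr7:35046422-35056573, with 62719 bases between them. Cebpb is a gene of 1 exon at chr2:167688915-167690418, plus strand. Cebpd lies at chr16:15887286-15891031, plus strand, and Cebpe at chr14:54710360-54712174, minus strand, with 2 exons. Cebpa and Cebpg are neighbours whose levels differed across the cells described below, so the bases just before each start are shown, with those of Cebpb. RefSeq promoters (GRCm38.p6) were matched for 3 of the 5 genes. Each line holds the 250 bases before the start, 5′ to 3′ on the gene's own strand: chr7:35119043-35119292 (plus) for Cebpa, chr2:167688665-167688914 (plus) for Cebpb and chr7:35056567-35056816 (minus) for Cebpg.
Cebpa: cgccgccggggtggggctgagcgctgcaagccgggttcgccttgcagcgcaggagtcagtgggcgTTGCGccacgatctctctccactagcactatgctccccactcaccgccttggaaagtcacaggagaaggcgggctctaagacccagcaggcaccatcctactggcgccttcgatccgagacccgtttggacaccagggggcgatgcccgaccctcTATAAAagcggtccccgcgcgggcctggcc
Cebpb: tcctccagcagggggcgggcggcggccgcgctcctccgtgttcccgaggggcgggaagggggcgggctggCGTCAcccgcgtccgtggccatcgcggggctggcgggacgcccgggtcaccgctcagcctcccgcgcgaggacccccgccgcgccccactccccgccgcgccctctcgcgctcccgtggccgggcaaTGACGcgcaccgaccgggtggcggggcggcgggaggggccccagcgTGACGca
Cebpg: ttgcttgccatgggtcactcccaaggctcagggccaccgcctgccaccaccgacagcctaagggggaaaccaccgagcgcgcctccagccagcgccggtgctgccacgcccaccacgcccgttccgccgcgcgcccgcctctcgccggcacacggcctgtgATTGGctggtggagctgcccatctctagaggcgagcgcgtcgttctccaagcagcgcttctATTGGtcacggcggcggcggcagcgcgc
Capitals mark matches to 5 motifs searched on both strands, counted backwards from the start. Cebpa held 1 C/EBP core (TTGCG, or CGCAA on the other strand) at -185 to -181 and 1 TATA box (TATAAA, or TTTATA) at -30 to -25. Cebpb held 3 CREB cores (TGACG, or CGTCA), at -180 to -176 on the other strand, at -53 to -49 and at -7 to -3. Cebpg held 2 CCAAT boxes (CCAAT, or ATTGG), both on the other strand, at -89 to -85 and at -28 to -24. The full C/EBP palindrome TTGCGCAA, which contains the C/EBP core, was in none of these 3 windows. Of 32536 RefSeq promoter windows of the same length, 14.6% held the C/EBP core, 12.3% the TATA box, 17.9% the CREB core, 33.8% the CCAAT box and 0.166% the palindrome.

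After filtering, 10528 cells carried a single hashtag: 5567 with A965 and 4716 with A963, besides 68 with A961, 104 with A962 and 73 with A964. Median counts per cell were 27205 in A965 and 20431 in A963, and ran from 25827 to 27801 in the small hashtags. No cell number was used by more than 1 hashtag. Every hashtag is 1 sample, so there is no replicate and no p-value, and intervals are exact 95% intervals of counting error only. Read against the sorting label, Kit had a count in 53.6% of stem-gated cells but in 5.03% of secondary-granule-gated and 1.63% of monocyte-gated cells, after each cell was thinned to 8800 counts. Xist had a count in 5.59% of thinned A965 cells and 84.6% of thinned A963 cells, so every difference between those hashtags goes along with a difference in sex-linked genes, and the part of the mouse's sex, the mouse, the sorted population and the treatment cannot be told apart.

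Cells were placed by marker genes that include no C/EBP gene, and each class below is a range of a marker score. The 15 gates described held 86.4% of the cells, while 351 cells met several lineage gates and 1041 met none. The azurophil gate holds cells with the early granule genes Mpo, Elane, Prtn3, Ctsg and Ms4a3. Granulocyte cells then follow by the secondary granule score (Camp, Ltf, Ngp, Lcn2 and Cd177): granule transition, azurophil and secondary, secondary granule, and tertiary granule (Retnlg, Mmp8, Mmp9 and Cxcr2 also raised). Cells lying within 0.2 of a bound were few for the erythroid (75), basophil or mast (39) and secondary granule (154) gates, but numbered 866 for stem, 636 for azurophil and 1064 for monocyte. Levels are counts summed over the cells of a gate and scaled to the gate's own total (CPM), and each gene is compared with itself only, since levels were not scaled by length.

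Each of the 5 genes had its own order over the gates. Cebpa was highest in basophil-or-mast-gated cells, Cebpb in nonclassical-monocyte-gated cells, Cebpd and Cebpe in the late granulocyte gates, and Cebpg in dendritic- and monocyte-gated cells. Of all A965 and A963 cells, 20.9% had no count of any member after thinning and the mean was 1.4 members a cell. The mean was 2.21 in the granule transition, 2.07 in the azurophil and secondary gate and 1.93 in the secondary granule gate, against 0.450 in erythroid-gated and 0.439 in early-lymphoid-gated cells.

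**Figure D1:**
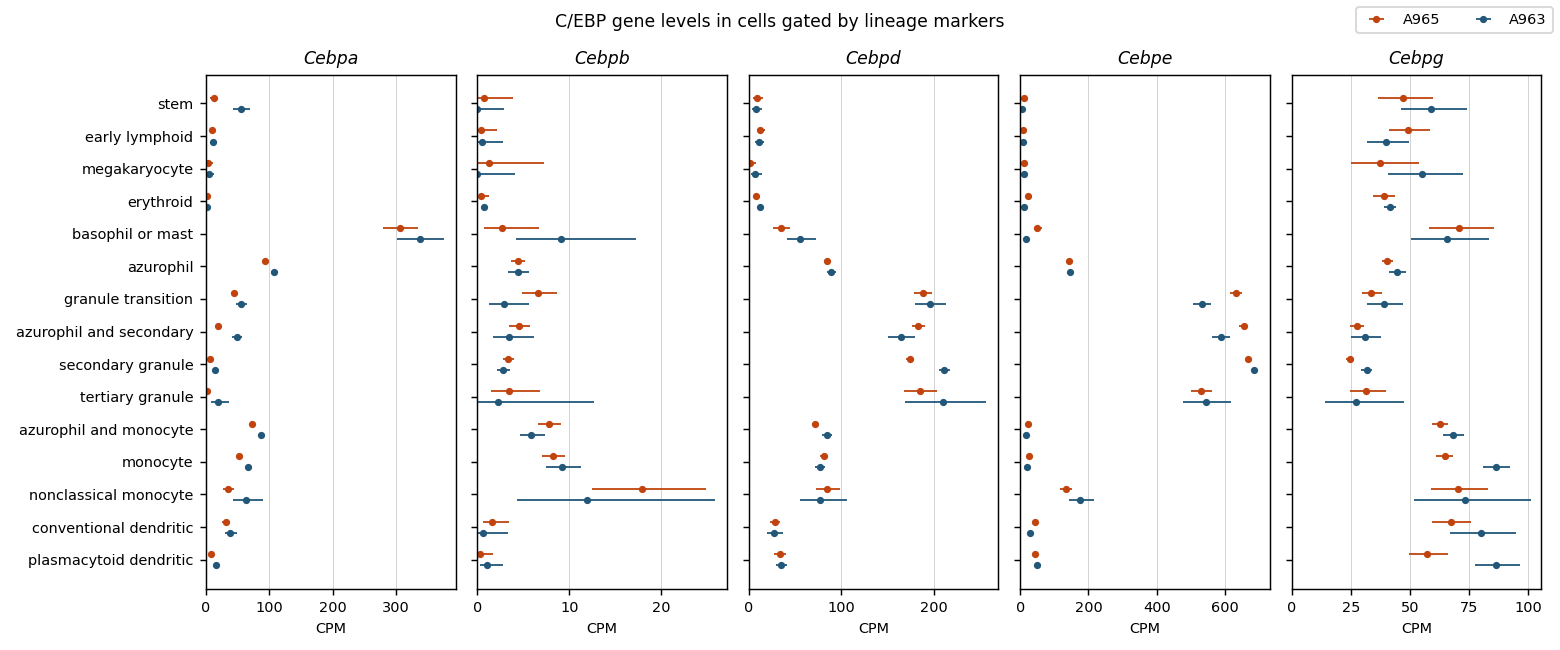
Level of each C/EBP gene (horizontal axis, CPM, linear and different for each gene) in the 15 gates, with A965 cells above A963 cells in each gate and bars for the exact 95% counting interval. Cebpa stands at 307 and 338 CPM in basophil-or-mast-gated cells, Cebpe is above 500 CPM in the 4 late granulocyte gates, and Cebpg varies least.

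Cebpa was highest in the basophil or mast gate, at 307 CPM (95% interval 279 to 336) in 60 A965 cells and 338 CPM (302 to 376) in 57 A963 cells. Its next highest level, in azurophil-gated cells, was 92.9 CPM in A965 and 108 CPM in A963, or 30.7% of the basophil or mast level over both hashtags. Then came the azurophil and monocyte gate, where cells carry early granule genes and monocyte genes such as Csf1r and Ly6c2, at 73.5 CPM in A965 and 87.2 CPM in A963. The monocyte gate followed at 52.0 CPM in A965 and 66.9 CPM in A963. These 4 gates kept this order in both hashtags, and each stood above the next in both.

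The basophil or mast gate also held the highest level of Gata2, a zinc finger factor of progenitors, basophils and mast cells, at 300.1 CPM, against 3.29 CPM in azurophil-gated cells. Cebpa had a count in 86.7% of A965 and 86.0% of A963 cells of that gate after thinning, and in 95% of A965 and 91.2% of A963 cells before. In erythroid-gated cells, which should lack it, the share was 1.28% in A965 and 1.83% in A963 after thinning, and 4.49% in A965 and 5.82% in A963 before. Median counts per cell were 17268 in the basophil or mast gate and 41764 in the erythroid gate. All 6 basophil or mast markers were detected in their gate, with a summed level of 21036 CPM, but so were all 5 azurophil markers, at 9224 CPM.

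Along the granulocyte gates Cebpa was lower at each later stage. Over both hashtags it was at 97.9 CPM in azurophil, 47.0 in granule transition, 24.8 in azurophil and secondary, 8.52 in secondary granule and 4.73 CPM in tertiary granule cells. The tertiary granule value was 2.16 CPM in 115 A965 cells and 18.2 CPM (7.85 to 35.8) in 33 A963 cells, so in A963 it did not continue the order. The level in erythroid-gated cells was 1.98 CPM. In stem-gated cells, marked by genes such as Hlf, Mecom and Procr, Cebpa was at 11.9 CPM in A965 and 55.0 CPM in A963, and this gap is described further on. Lymphoid, megakaryocyte and erythroid gates held between 1.98 and 10.1 CPM over both hashtags.

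Cebpb had few counts anywhere: 806 in all A965 cells and 376 in all A963 cells. Its level was highest in the nonclassical monocyte gate (Ace, Adgre4, Treml4 and Cd300e), at 17.9 CPM (12.5 to 24.9) in A965 from 35 counts and at 11.9 CPM (4.36 to 25.9) in A963 from 6 counts. The monocyte gate held 8.21 CPM in A965 and 9.25 CPM in A963, and the azurophil and monocyte gate 7.80 CPM in A965 and 5.88 CPM in A963. The gates after these, down to the secondary granule gate, ran from 5.57 to 3.14 CPM over both hashtags, and their order was not the same in each. Stem-gated cells had 1 Cebpb count in 70 A965 cells and 0 in 83 A963 cells, whose interval reaches 2.90 CPM.

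After thinning, Cebpb had a count in 17.1% of A965 and 13% of A963 cells of the nonclassical monocyte gate, and in 20.5% of A965 and 17.4% of A963 cells before thinning. In erythroid-gated cells the thinned share was 0% of 156 A965 cells, with an upper bound of 2.34%, and 0.832% of A963 cells with a count. Cebpb overlaps Tmem189 on the opposite strand, which was at 15.3 CPM over all cells. Cebpd overlaps Spidr (14.8 CPM) and Cebpa overlaps Gm45091 (0.0846 CPM) in the same way. Whether the counting used strand is not given in the sources used here, so reads of these pairs may not have been told apart.

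Cebpd was at nearly the same level in the 4 gates with secondary granule genes, at 190 CPM in granule transition, 188 in tertiary granule, 187 in secondary granule and 179 CPM in azurophil and secondary cells over both hashtags. Their order was not the same in A965 and A963. Azurophil-gated cells held 84.9 CPM in A965 and 89.0 CPM in A963, so the level over both hashtags was 45.4% of the highest. Nonclassical monocyte, monocyte, and azurophil and monocyte cells lay close to this, between 76.7 and 82.9 CPM, and these 3 neighbours also changed places between hashtags. Early lymphoid, erythroid, stem and megakaryocyte gates held 11.8, 11.3, 8.51 and 4.16 CPM.

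Cebpe, the member tied to secondary granule genes, was at 669 CPM in A965 and 686 CPM in A963 cells of the secondary granule gate. It was at 655 CPM in A965 and 588 CPM in A963 cells of the azurophil and secondary gate, and at 632 CPM in A965 and 533 CPM in A963 cells of the granule transition. In azurophil-gated cells it was at 143 CPM in A965 and 146 CPM in A963, or 21.4% of the highest level. The share of thinned cells with a Cebpe count was 47.7% in A965 and 45.3% in A963 azurophil cells, and 97.4% in A965 and 96.8% in A963 secondary granule cells. In erythroid-gated cells it was 10.3% in A965 and 5.16% in A963.

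Monocyte-gated cells had 26.1 CPM of Cebpe in A965 and 21.1 CPM in A963, close to the erythroid-gated level in A965. Just 2 cells passed the eosinophil gate (Epx, Prg2, Prg3 and Il5ra). The A965 cell had 38 Cebpe counts and the A963 cell 5.

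Cebpg varied least: its lowest gate, secondary granule, was at 37.2% of its highest, plasmacytoid dendritic, and the lowest gate of each other member was at 2.22% or less of its own highest. Plasmacytoid dendritic cells held 57.4 CPM in A965 and 86.5 CPM in A963, and monocyte-gated cells 64.6 CPM in A965 and 86.3 CPM in A963. The 4 highest gates (plasmacytoid dendritic, monocyte, conventional dendritic and nonclassical monocyte) lay between 70.7 and 72.8 CPM over both hashtags and did not keep 1 order. Erythroid-gated cells, the lowest in Cebpa, had 38.9 CPM of Cebpg in A965 and 41.4 CPM in A963. Secondary granule cells held 24.6 CPM in A965 and 31.6 CPM in A963. Cebpg thus ran down as Cebpe ran up along the granulocyte gates.

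**Figure D2:**
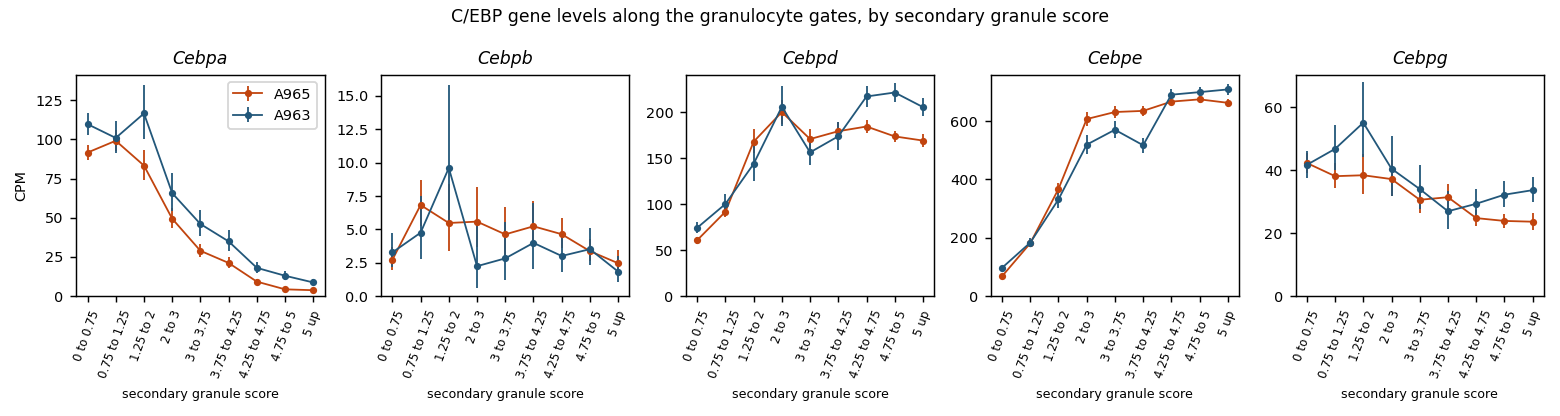
Level of each C/EBP gene (vertical axis, CPM, linear from 0) in granulocyte-gated cells cut into 9 bins of the secondary granule score (horizontal axis), A965 in orange and A963 in blue, with exact 95% counting intervals. Cebpa is above 80 CPM in the first 3 bins and below 15 CPM in the last 2, Cebpe passes 500 CPM in the fourth bin, and Cebpa is lower in A965 in all 9 bins.

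Cutting the granulocyte gates into 9 bins of the secondary granule score showed where the members changed places. In A965, Cebpa was at 91.6, 99.1 and 83.3 CPM in the first 3 bins, at 49.4, 28.9 and 21.2 CPM in the next 3, and at 9.29, 4.38 and 3.82 CPM in the last 3. In A963 it was at 110, 101 and 117 CPM, then 65.8, 46.1 and 35 CPM, then 18.1, 13 and 8.76 CPM. Cebpe in A965 was at 68.2, 181 and 367 CPM in the first 3 bins, at 607 CPM in the fourth, and stayed between 607 and 675 CPM from there on. In A963 it was at 97.2, 184 and 332 CPM, then 519 CPM, with 709 CPM in the last bin.

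In the fourth bin (scores of 2 to 3), Cebpe was thus close to its later levels in A965 but still well under its last bin in A963, and Cebpa was still at 49.4 CPM in A965 and 65.8 CPM in A963. Camp, a secondary granule gene used in the score, stood at 12417 CPM in A965 and 22541 CPM in A963 in that bin, with 48737 CPM in A965 and 65494 CPM in A963 in the last bin. Cebpd came up over the same bins, from 61.0 CPM in the first to 200 CPM in the fourth in A965, and from 74.5 to 206 CPM in A963. The bins held between 57 and 705 cells of a hashtag.

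Within the azurophil gate, cells with and without a Cebpe count could be set side by side after thinning. Cebpa had a count in 49.8% of the 267 A965 cells with Cebpe and in 50.5% of the 293 without. In A963 the shares were 54.8% of 188 cells with Cebpe and 56.4% of 227 without. Cebpd had a count in 55.1% of A965 cells with Cebpe and 35.2% without, and in 52.7% of A963 cells with Cebpe and 38.8% without. Cebpa and Cebpe were thus found in the same azurophil cells about as often as the share of each gives, and Cebpd was found more often in cells with Cebpe, in both hashtags. Within the azurophil gate both genes also rose with the secondary granule score. Over its bins, with scores below 2, Cebpe went from 68.2 to 367 CPM and Cebpd from 61.0 to 168 CPM in A965. In A963, Cebpe went from 97.2 to 332 CPM and Cebpd from 74.5 to 144 CPM. The part of this rise in the azurophil shares was not tested. Cells are not replicates, and these shares were not tested.

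**Figure D3:**
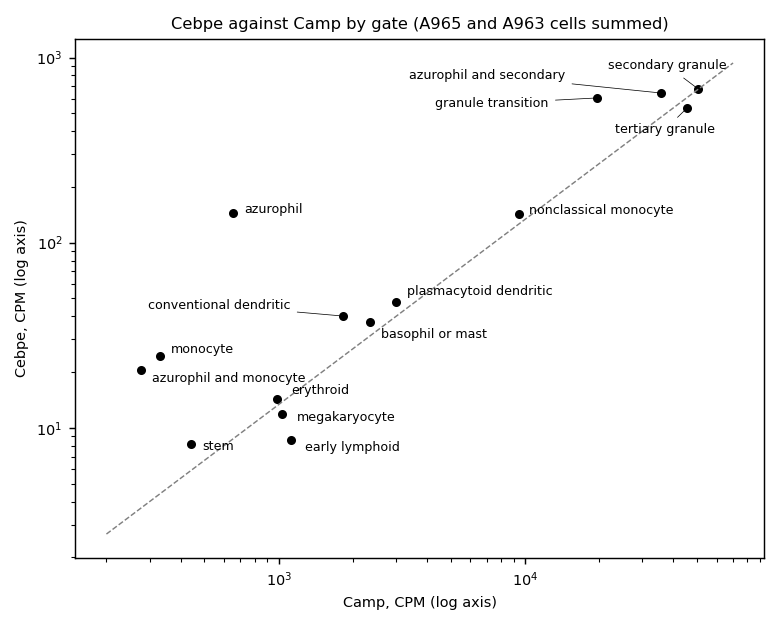
Cebpe against Camp in the 15 gates (both axes CPM, log axes, A965 and A963 cells summed), with a dashed line at the ratio of the secondary granule gate. Azurophil cells, at 144 CPM of Cebpe and 653 CPM of Camp, lie far above the line, erythroid, basophil or mast and nonclassical monocyte cells lie near it, and granule transition and conventional dendritic cells lie between. The azurophil gate itself holds the secondary granule score, which includes Camp, below a bound.

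Camp was found in every gate, so Cebpe counts were also given per 1000 Camp counts. RNA from secondary granule cells would carry both at their own ratio. That ratio was 13.3 in the secondary granule gate over both hashtags. Azurophil cells had 221, and the monocyte and the azurophil and monocyte gates had 74.1 and 74.5, all above that ratio. Erythroid cells had 14.5, basophil or mast cells 16.0, nonclassical monocyte cells 15.1 and plasmacytoid dendritic cells 15.9, all near it in these sums. In between lay granule transition cells with 30.7, conventional dendritic cells with 22.1, stem cells with 18.4 and azurophil and secondary cells with 18.0. Tertiary granule, megakaryocyte and early lymphoid cells had 11.7, 11.5 and 7.68. This grouping is of sums over both hashtags. Secondary granule cells had 15.0 in A965 and 11.3 in A963. In the same order, plasmacytoid dendritic cells had 21.5 and 13.2, and basophil or mast cells 15.7 and 17.3. Erythroid cells had 17.1 and 13.4, nonclassical monocyte cells 16.4 and 12.3, and conventional dendritic cells 27.4 and 13.2. Within a hashtag the grouping was thus not always kept. The azurophil, monocyte, and azurophil and monocyte gates took only cells below the lower bound of the secondary granule score, which includes Camp. Their Camp was thus held low by the gating. The granule transition was held below the upper bound of that score, and stem-scored cells that met a granulocyte gate were placed there instead. The gates set by a lineage score had no such bound. The part of these bounds in the ratios was not tested. In the nonclassical monocyte gate all 5 secondary granule markers were found, with a summed level of 24077 CPM, beside its 133 CPM of Cebpe in A965 and 176 CPM in A963. Before thinning, Cebpe counts lay in 33 of 140 nonclassical monocyte, 50 of 405 plasmacytoid dendritic, 17 of 117 basophil or mast and 126 of 757 erythroid cells. The highest count in a cell was 50, 38, 19 and 40, in that order. The part of granulocyte RNA in the Cebpe of these gates, and how it came there, was not tested further.

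Over all cells, none of the 5 members passed 1.5-fold between A965 and A963 with 10 CPM added to each side, the rule used for a call here. Among 8025 genes with at least 10 CPM in either hashtag, 4.47% passed it, so a count of 0 among the members is near the background. Cebpe was at 284 CPM in A965 and 199 CPM in A963, which gives a ratio of 1.43 (1.41 to 1.45). Cebpd was at 104 CPM in A965 and 87.4 CPM in A963, which gives a ratio of 1.19 (1.16 to 1.22). Cebpg was at 43.7 CPM in A965 and 51.1 CPM in A963, which gives a ratio of 0.856 (0.827 to 0.885). Cebpb was at 4.58 CPM in A965 and 3.18 CPM in A963, under the 10 CPM needed for a call, with a ratio of 1.44 (1.27 to 1.63). Cebpa was at 42.1 CPM in A965 and 42.8 CPM in A963, which gives a ratio of 0.983 (0.949 to 1.02).

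These sums depend on the mix of cells. Erythroid-gated cells, which are low in Cebpa, Cebpd and Cebpe, made up 2.8% of A965 and 12.7% of A963 cells, and the azurophil and secondary gate 7.08% of A965 and 2.40% of A963 cells. In the sorted material such shares can be set by the gates of the sort. With the gates weighted equally, the ratio of Cebpe was 1.10 and that of Cebpa 0.781, while Cebpd came to 0.936 and Cebpb to 1.01.

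**Figure D4:**
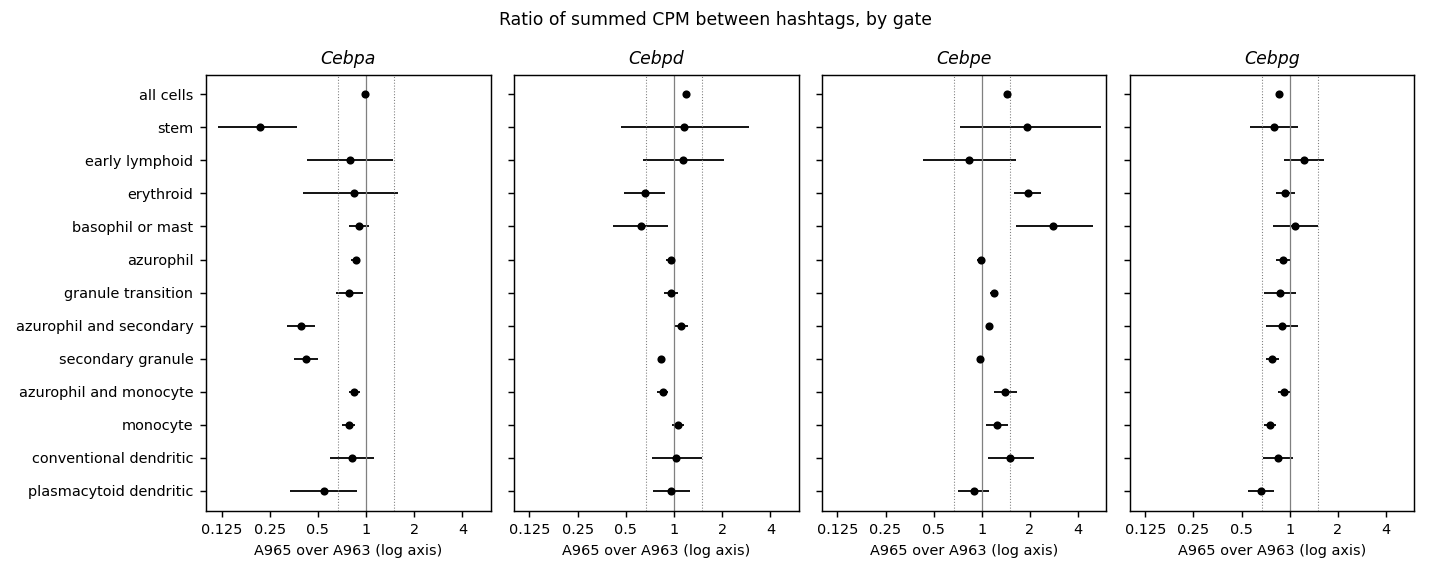
Ratio of A965 over A963 (horizontal log axis) for 4 C/EBP genes over all cells and in the 12 gates with at least 50 cells of both hashtags, with exact 95% counting intervals, a line at 1 and dotted lines at 1.5-fold either way. Cebpa lies below 1 in all 12 gates at these bounds (not in early lymphoid cells under a stricter one), lowest in the stem, azurophil and secondary, and secondary granule gates, and Cebpe lies farthest above 1 in basophil-or-mast-gated cells. Cebpb, under 10 CPM in all 12 gates, is not drawn.

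In the 12 gates with at least 50 cells of both hashtags there were 60 pairs of gene and gate. Of these, 2 were called higher and 2 lower in A965, 41 were not called and 15 were under 10 CPM. The calls were Cebpa, lower in the stem gate and in the azurophil and secondary gate, and Cebpe, higher in the erythroid gate and in the basophil or mast gate. Over all genes tested, the share called in either direction was 13.2% in the stem, 5.32% in the azurophil and secondary, 1.36% in the erythroid and 17.9% in the basophil or mast gate, and the members called were 1 in each of these 4 gates, too few to set apart from that background. No member was called in the remaining 8 gates, where the share was 8.16% in early lymphoid, 0.997% in azurophil, 4.79% in granule transition, 2.06% in secondary granule, 1.1% in azurophil and monocyte, 4.49% in monocyte, 7.52% in conventional dendritic and 3.84% in plasmacytoid dendritic cells.

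Cebpa was lower in A965 than in A963 in all 12 gates, although its ratio over all cells was 0.983. The counting interval lay below 1 in 8 of these gates and held 1 in the other 4 (early lymphoid, erythroid, basophil or mast and conventional dendritic). Of the 8025 genes with at least 10 CPM over all cells, 0.498% were below 1 in all 12 gates. A stricter bound turned the direction in the early lymphoid gate, with a ratio of 2.32 from 18 counts in A965 and 6 in A963. Azurophil cells had a ratio of 0.859 (0.807 to 0.915), azurophil and monocyte cells 0.843 (0.780 to 0.912) and monocyte cells 0.778 (0.706 to 0.858). These are small differences, inside 1.5-fold. Within the monocyte gate the early granule genes were lower in A965 too, with Mpo at 229 CPM in A965 and 386 CPM in A963, and Lyz2, a gene of more mature cells, was at 12659 CPM in A965 and 5379 CPM in A963. The part of maturity within the gate in its Cebpa value was not tested.

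The largest relative difference of Cebpa among these 12 gates was in the stem gate. There 17 counts were spread over 8 of 70 A965 cells, none with more than 3, and 70 counts over 27 of 83 A963 cells, with up to 8 in a cell. The levels of 11.9 CPM (6.93 to 19.0) in A965 and 55.0 CPM (42.9 to 69.5) in A963 gave a ratio of 0.216 (0.119 to 0.371). After thinning, 7.14% of A965 and 26.5% of A963 cells had a count. Median counts per cell in the gate were 17747 in A965 and 13750 in A963. Of all 9185 genes tested in the gate, 7.15% were called lower in A965. Among all filtered cells, in or out of the gate, 866 lay within 0.2 of the stem bound. Under a stricter bound, which left 40 A965 and 51 A963 cells with 7 counts in A965 and 48 in A963, the ratio was 0.152.

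Azurophil and secondary cells held 19.3 CPM of Cebpa (17.1 to 21.8) in A965 and 49.1 CPM (41.7 to 57.5) in A963, a ratio of 0.394 (0.322 to 0.482), where 2.97% of 7233 genes were called lower in A965. After thinning, 12.9% of 394 A965 cells and 27.4% of 113 A963 cells had a count. A stricter bound ended this call, with a ratio of 0.962, but left 30 A965 cells with 16 counts and 3 A963 cells with 2 counts. Secondary granule cells held 5.69 CPM in A965 and 13.5 CPM in A963, which gives a ratio of 0.421 (0.355 to 0.499) that missed the call once 10 CPM was added to each side, at -0.58 on the log2 scale. In the bins of the secondary granule score, Cebpa was lower in A965 in all 9. Elane was higher in A965 in the fifth to ninth bins, at 4378 CPM in A965 and 2742 CPM in A963 in the sixth, for example.

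Cebpe was called higher in A965 in gates where its level was low. Erythroid-gated cells held 23.0 CPM (19.6 to 26.8) in 156 A965 cells and 11.9 CPM (10.6 to 13.3) in 601 A963 cells, a ratio of 1.93 (1.59 to 2.34), where 1.12% of 7427 genes were called higher. With 25 CPM added in place of 10 this call was lost, at 0.38 on the log2 scale. The 161 A965 counts lay in 37 of 156 erythroid-gated cells, with as many as 40 in a single cell. The 313 A963 counts lay in 89 of 601 cells, with up to 32 in a cell. The interval does not cover such bunching of counts in few cells. Basophil-or-mast-gated cells held 50.1 CPM (39.5 to 62.7) in A965 and 18.1 CPM (10.7 to 28.7) in A963, a ratio of 2.76 (1.64 to 4.91), where 6.27% of 9026 genes were called higher. In that gate 76 counts lay in 11 of 60 A965 cells and 18 counts in 6 of 57 A963 cells. Camp moved with both: it was at 1345 CPM in A965 and 887 CPM in A963 erythroid cells, and at 3196 CPM in A965 and 1049 CPM in A963 basophil or mast cells. Per 1000 Camp counts, Cebpe was at 17.1 in A965 and 13.4 in A963 erythroid cells, and at 15.7 in A965 and 17.3 in A963 basophil or mast cells, against 15.0 in A965 and 11.3 in A963 secondary granule cells.

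Summed over each gate, the hashtags were close in the gates where Cebpe was high. The ratio was 1.19 (1.12 to 1.26) in the granule transition, 1.11 (1.06 to 1.17) in azurophil and secondary cells, 0.982 (0.932 to 1.04) in azurophil and 0.975 (0.957 to 0.994) in secondary granule cells. By bin of the secondary granule score they were not all close. Of 9 bins, the Cebpe intervals lay apart with A965 lower in 2 and higher in 3. Cebpe was at 68.2 CPM in A965 and 97.2 CPM in A963 in the first bin, and at 635 CPM in A965 and 517 CPM in A963 in the sixth. Cebpd gave gate ratios of 0.960 (0.869 to 1.06) in the granule transition and 0.825 (0.796 to 0.855) in secondary granule cells, with 174 CPM in A965 and 211 CPM in A963 in the latter. No Cebpd or Cebpg pair was called in any gate. Cebpg was lowest relative to A963 in plasmacytoid dendritic cells, at 0.663 (0.551 to 0.797), and in monocyte cells, at 0.749 (0.687 to 0.817).

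**Figure D5:**
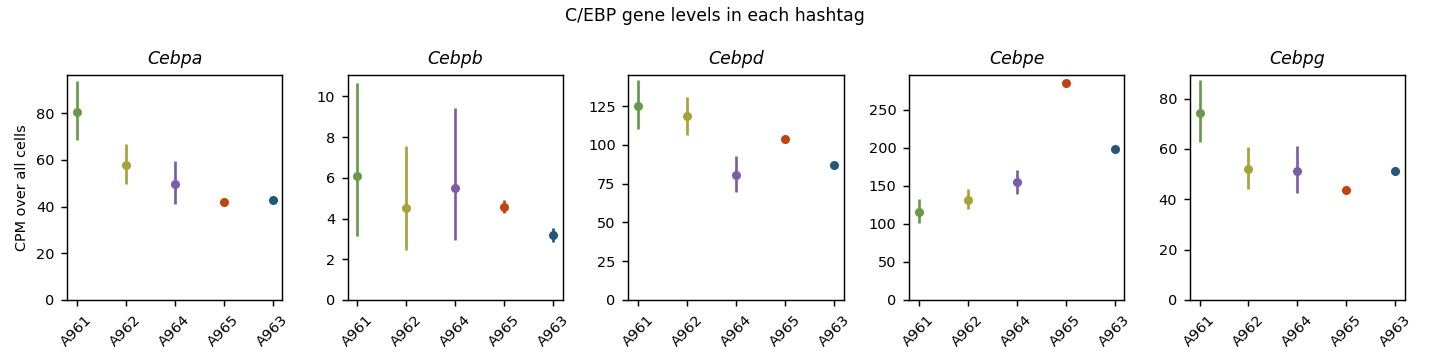
Level of each C/EBP gene over all cells of each hashtag (vertical axis, CPM, linear from 0), with exact 95% counting intervals that are wide for the small hashtags A961, A962 and A964. Cebpe is lower in the 3 small hashtags (116 to 154 CPM) than in A965 (284 CPM) and A963 (199 CPM), and A961 has the highest Cebpa and Cebpg.

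A962 had 104 cells after filtering although 100 were loaded, and A961 and A964 had 68 and 73 of 100. The large hashtags had 5567 (A965) and 4716 (A963) of 15000 each. Whether cells of the large hashtags were named with a small one was not tested, and this limits every value of the small hashtags. The 3 small hashtags had many cells with monocyte genes. The monocyte gate took 31 of 68 A961, 15 of 104 A962 and 27 of 73 A964 cells, and the azurophil and monocyte gate took 19, 29 and 12 more, in that order. Cebpa was at 80.4 CPM (68.3 to 93.9) in A961, 57.7 CPM (49.6 to 66.8) in A962 and 49.6 CPM (41.0 to 59.4) in A964. Cebpd was at 125 CPM (110 to 142) in A961, 118 CPM (107 to 131) in A962 and 80.5 CPM (69.5 to 92.8) in A964. Cebpe was at 116 CPM in A961, 132 CPM in A962 and 154 CPM in A964, and Cebpg at 74.3 CPM in A961, 51.9 CPM in A962 and 51.3 CPM in A964. Cebpb rested on 12 to 14 counts in each.

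Within the monocyte gate, where the cell mix is narrower, Cebpd was at 129 CPM (105 to 157) in A961, 120 CPM (87.2 to 162) in A962 and 66.6 CPM (49.2 to 88.0) in A964, against 80.8 CPM in A965 and 76.8 CPM in A963. Cebpa in that gate was at 85.3 CPM (66.0 to 109) in A961, 81.2 CPM (54.4 to 117) in A962 and 57.1 CPM (41.1 to 77.1) in A964. The azurophil and monocyte gate had the same order for Cebpd, with 155 CPM in A961, 125 CPM in A962 and 76.6 CPM in A964. A964 had the lowest Cebpd of the 3 in both gates, but these gates held 12 to 31 cells of a small hashtag and the counting intervals of A962 and A964 overlapped in both. A964 also differed in Xist, at 59.7 CPM over all its cells against 486 CPM in A961 and 409 CPM in A962. The parts of sex, mouse and population in these differences cannot be told apart. Cebpg was at 75, 72.8 and 74.7 CPM in the monocyte gate of A961, A962 and A964.

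Over the 15 gates, Pearson's r of log2(CPM + 10) was 0.89 between Cebpd and Cebpe, -0.64 between Cebpe and Cebpg, and -0.05 between Cebpa and Cebpe. These describe 15 gates that share 1 library, differ in depth and are each scaled to their own total. By the same measure, over 4419 genes of at least 50 CPM in some gate, the gene most like Cebpe was Rflnb (r = 0.99), followed by Gca, Dgat2, G0s2 and Hsd11b1. The most like Cebpd was Hp, which encodes haptoglobin (r = 0.99), followed by Clec5a, C3, Dram1 and Flot2. The most like Cebpa was Tent5a (r = 0.91), then Ufsp2, Edem2, Os9 and Nufip2. The most like Cebpb was Smpdl3a (r = 0.93), then Plod3, Man2a1, Idh1 and Atp6v1b2. The most like Cebpg was Spop (r = 0.95), then Ly6e, Ccdc88a, Crip1 and Trpc4ap. With A963 cells alone 2 to 4 of each 5 names were shared, and with A965 cells alone 2 or 3.

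Genes known as partners or modifiers of C/EBP proteins were counted as a list of 16. Of 7 with at least 10 CPM in A965 or A963 over all cells, 0 were called in either direction. The share called over all genes tested was 4.47%, so this count is near the background. Their median log2 ratio was -0.08, beside -0.05 for all genes tested. Atf4, a dimer partner of C/EBPγ, was at 164 CPM in erythroid and 79.3 CPM in secondary granule cells. Ddit3, which encodes the C/EBP inhibitor CHOP, was also highest in erythroid cells, at 36.5 CPM. Trib1, whose product directs C/EBPα to breakdown, reached 11 CPM in nonclassical monocyte cells and stayed under 7 CPM in every other gate. Hlf and Batf3 of this list are also gate markers.

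Of 11 regulators set beside C/EBPs in the choice between lineages, 10 could be tested over all cells. The 3 called lower in A965 were Gata1 (7.56 CPM in A965 and 34.0 CPM in A963), Gfi1b (8.54 CPM in A965 and 38.1 CPM in A963) and Zfpm1 (4.2 CPM in A965 and 15.8 CPM in A963), all highest in erythroid- or megakaryocyte-gated cells, and 0 were called higher. Of all genes tested over all cells, 4.47% were called in either direction. Within the erythroid gate, 0 of 7 tested regulators were called higher and 0 lower, beside 1.36% of all genes tested in either direction. Spi1, which encodes PU.1, was at 270 CPM in azurophil, 411 CPM in granule transition and 713 CPM in nonclassical monocyte cells. Gfi1, a repressor needed for neutrophils, was at 48.4 CPM in azurophil, 61.7 CPM in granule transition and 17.8 CPM in secondary granule cells, so its highest gate was the one in which Cebpe came up. In the stem gate, 3 of 9 tested regulators were called lower in A965 (Gfi1, Irf8 and Stat3) and 1 higher (Zfpm1), in a gate where 7.15% of all genes tested were called lower and 13.2% in either direction. Gfi1 was at 7.0 CPM in A965 and 24.4 CPM in A963 stem cells.

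Of 20 granulocyte and monocyte genes known for C/EBP sites or dependence, 19 were tested over all cells. There 2 were called higher in A965 (Prtn3 and Mmp8) and 0 lower, beside 4.47% of all genes tested in either direction. Their median log2 ratio was 0.40, beside -0.05 for all genes tested. Several of them, such as Mpo, Elane, Camp and Ltf, are markers of the gates. In the monocyte gate 7 of 19 were called higher in A965 and 3 lower (Mpo, Elane and Ctsg), where 4.49% of all tested genes were called in either direction. Those higher there were Lyz2, Lcn2, Mmp8, Itgam, S100a8, S100a9 and Fcnb, with Itgam, an integrin of mature myeloid cells, at 147 CPM in A965 and 41.0 CPM in A963. In erythroid cells 8 of 14 were called higher and 0 lower, and in basophil or mast cells 9 of 18 higher and 2 lower, where 1.36% and 17.9% of all genes tested were called in either direction. In early lymphoid cells the calls ran the other way, with 1 of 17 higher and 8 lower beside 8.16% of all genes. Camp differed in the same direction in these 3 gates, at 657 CPM in A965 and 1728 CPM in A963 early lymphoid cells, and its part was not tested. In each of the other 8 gates 0 to 3 were called higher and 0 to 3 lower. Azurophil and secondary granule cells each had 1 higher and 0 lower of 17, beside 0.997% and 2.06% of all genes tested. Csf3r, the G-CSF receptor gene, was highest in the granule transition and tertiary granule gates, at 97.8 CPM in each, and Csf1r, the M-CSF receptor gene, in nonclassical monocyte cells, at 604 CPM.

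Of 10 amino acid stress genes known for C/EBPγ and ATF4, 7 were tested over all cells and 0 were called, with a median of -0.06. As 4.47% of all genes tested were called, a count of 0 among 7 is near the background. Asns, which encodes asparagine synthetase, was at 151 CPM in erythroid and 47.9 CPM in secondary granule cells, and Phgdh, of serine synthesis, at 206 CPM in azurophil and 6.64 CPM in secondary granule cells. Of 9 cycling genes, 9 were tested and 0 called, with a median of -0.14, and this count too is near that background. Mki67 was at 274 CPM in A965 and 275 CPM in A963 over all cells.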

How the data were processed

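The deposited table holds whole-number counts per gene and cell that the authors left unscaled, with the hashtag in each cell's name, per the file headers. GRCm38, Seurat 4.2.0 and R 4.2.1 appear in the submitters' processing notes without a role. The aligner, the annotation and the counter are not given in the sources used here, nor whether a count is a molecule or a read. Values of 2 numbered 54.7% of values of 1, so counts may repeat 1 molecule, and intervals cover counting error only.

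Of 10731 cells, the 190 named as doublets by the authors and 6 with no hashtag were left out, as were 7 with under 500 genes or over 20% mitochondrial counts. Cell totals ran from 8822 to 140994. The members, lists and tests were chosen with earlier results of these data known, and the gate bounds after histograms of the scores had been looked at. A score is the mean of ln(1 + counts per 10000) over a marker list. A cell took a lineage gate by its score (bounds: early lymphoid 0.6, megakaryocyte 0.5, erythroid 0.9, basophil or mast 0.6, eosinophil 1, plasmacytoid dendritic 0.8, conventional dendritic 0.9, nonclassical monocyte 0.6), and cells passing several were set aside. The others were split at 0.35 (stem), 2.2 (azurophil), 1.4 (monocyte), 2 and 3.4 (secondary granule) and 1 (tertiary granule). A cell that met the stem bound and also a granulocyte or monocyte gate was placed in the latter. Gates for B cells, T or NK cells and macrophages held 9, 2 and 22 cells and are not described. Proneutrophil and stromal markers served no gate: azurophil cells had 16056 CPM of the first and 2.41 CPM of the second list.

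Counts were summed and scaled to CPM. Levels have exact Poisson, shares Clopper-Pearson and ratios exact binomial intervals at 95%. Printed ratios have nothing added, and calls need 1.5-fold with 10 CPM added and at least 10 CPM in either hashtag. Doublets within a hashtag were not called by a tool, and leaving out the top 5% of totals was an alternative. Named genes were the members, for each the 5 genes most like it over the gates (no member, marker, mitochondrial, ribosomal protein, Gm-number or Rik name), and examples from the lists, picked after their values were seen. The ratio step was tested on simulated Poisson sums, with no bunching of counts in few cells and no repeated molecules. That test cannot show how the intervals hold where counts bunch or repeat. Python 3.11.15, numpy 2.4.6, pandas, scipy and matplotlib were used.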

Additional observations from a re-analysis of the deposited data

How the results depend on the processing

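Without the cell filter no ratio over all cells left its counting interval. With median-of-ratios scaling the ratio of A965 over A963 was 1.02 for Cebpa, 1.24 for Cebpd, 1.49 for Cebpe and 0.890 for Cebpg. As a mean over cells of scaled counts it was 0.871 for Cebpa, 1.03 for Cebpd and 1.16 for Cebpe, and with cells thinned to 8800 counts 0.875, 1.03 and 1.16 for the same genes. Without the top 5% of count totals it was 0.832 for Cebpa, 1.14 for Cebpd and 1.39 for Cebpe. With gates weighted equally it was 0.781 for Cebpa, 1.01 for Cebpb, 0.936 for Cebpd and 1.10 for Cebpe. Cebpa thus crossed 1 under the first scaling and Cebpd under the last; the causes were not tested. With 1 CPM added, 8 pairs of gene and gate were called instead of 4, and with 25 CPM, 3, without Cebpe in the erythroid gate. Of the ratios within gates under 3 alternatives, 160 stayed inside the counting interval and 16 did not, among them Cebpa in the stricter early lymphoid gate, at 2.32. Of the levels by gate, 107 stayed inside it and 43 did not. Low counts limit Cebpb everywhere and every member in the small hashtags. No paired analysis was possible because each hashtag is 1 sample without a replicate number.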
